A study of Mus musculus with 6 samples.

Results

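The matrilins (Matn1, Matn2, Matn3 and Matn4) and the thrombospondins (Thbs1, Thbs2, Thbs3, Thbs4 and Comp, the cartilage oligomeric matrix protein) were chosen by gene symbol, as 2 families of secreted, multi-subunit adaptor proteins of the extracellular matrix. They make up 9 of the 23364 gene symbols in the deposited expression table, and all 9 were found there. Transcript levels were measured by RNA-seq in 6 libraries of total RNA from C57BL/6 mice at postnatal day 1. The osteoblast group has 3 libraries of cells from the calvaria (the bones of the skull vault), labelled Sp7 positive, named Sp7-GFP and sorted on green fluorescent protein after digestion with Liberase TM. The chondrocyte group has 3 libraries of cells from rib cartilage of wild-type mice, released with Pronase and Collagenase D and not labelled as sorted. No treatment is given for either group. Cell type, anatomical site, sorting, genotype and enzyme all go with the group and cannot be told apart. The labels do not say that the libraries of a group came from separate animals, so p-values measure the spread among these libraries only. The comparison asks how osteoblasts marked by Sp7, the transcription factor Osterix, differ from chondrocytes.

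Matrilins are built from von Willebrand factor A domains and epidermal growth factor-like repeats, joined into oligomers by a coiled coil, and they link collagen fibrils to proteoglycans and to each other. Thbs1 and Thbs2 encode trimeric thrombospondins that bind many cell surface receptors, growth factors and proteinases. Thbs3, Thbs4 and Comp encode pentamers, which lack the domains that give the trimers their antiangiogenic activity. Matn1, Matn3 and Comp are classical products of cartilage, and dominant variants of MATN3 and COMP cause human skeletal dysplasias.

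Cell type markers followed the labels in all 6 libraries. All 7 osteoblast markers (Sp7, Runx2, Ibsp, Bglap, Dmp1, Alpl and Col1a1) were higher in osteoblasts, and all 6 chondrocyte markers (Sox9, Col2a1, Acan, Col9a1, Hapln1 and Snorc, held under its older symbol) were lower, though Bglap, Dmp1 and Snorc passed the filter of the test through 1 group alone. Of all tested genes, 55.5% were higher in osteoblasts and 13.5% were lower. Pearson correlations of log2(RPKM + 1) lay between 0.992 and 0.994 among osteoblast libraries, between 0.961 and 0.986 among chondrocyte libraries and between 0.777 and 0.820 across the groups. Levels are RPKM, in which reads are scaled to the length of the transcript and to the size of the library, so they can be compared between genes. Steps between low values gave the depth: 1 RPKM in a transcript of 2 kb stood for an estimated 54.0 to 69.3 reads in osteoblast libraries and 67.2 to 71.8 reads in chondrocyte libraries.

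Osteoblasts had much less Comp, Matn3, Matn1 and Thbs4 RNA than chondrocytes, moderately less Thbs1 and Thbs3 RNA, and more Thbs2 RNA, while Matn2 and Matn4 did not pass the test. Differences were tested by limma on log2(RPKM + 1) over the 11218 genes that reached 1 RPKM in 3 or more libraries, with the call set at 0.05 on the p adjusted by Benjamini-Hochberg. All 9 members passed that filter, 2 of them (Matn1 and Matn3) through the chondrocytes alone, so their direction was built in. Of the 9, 6 were lower in osteoblasts, where 13.5% of all tested genes were, 1 was higher, where 55.5% were, and 2 were not called. In either direction 69.0% of tested genes were called. The libraries of the groups did not overlap for 7 of the 9, as for 75.6% of tested genes. Of the 7, 1 had osteoblasts above, as 60.4% of tested genes did, and 6 had osteoblasts below, as 15.3% did. The median log2 difference (osteoblast minus chondrocyte) was -1.06 over the members and 0.43 over all tested genes. With libraries scaled by median of ratios, the whole table split into 3458 genes higher and 3429 lower in osteoblasts, against 6224 and 1512 as deposited, and its median moved to 0.016. Such scaling evens out the typical ratio between libraries, so the near-even split largely follows from it. The 7 calls among the members held under that scaling. In bulk RNA, fewer cells of a type and less RNA per cell cannot be told apart.

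**Figure D1:**
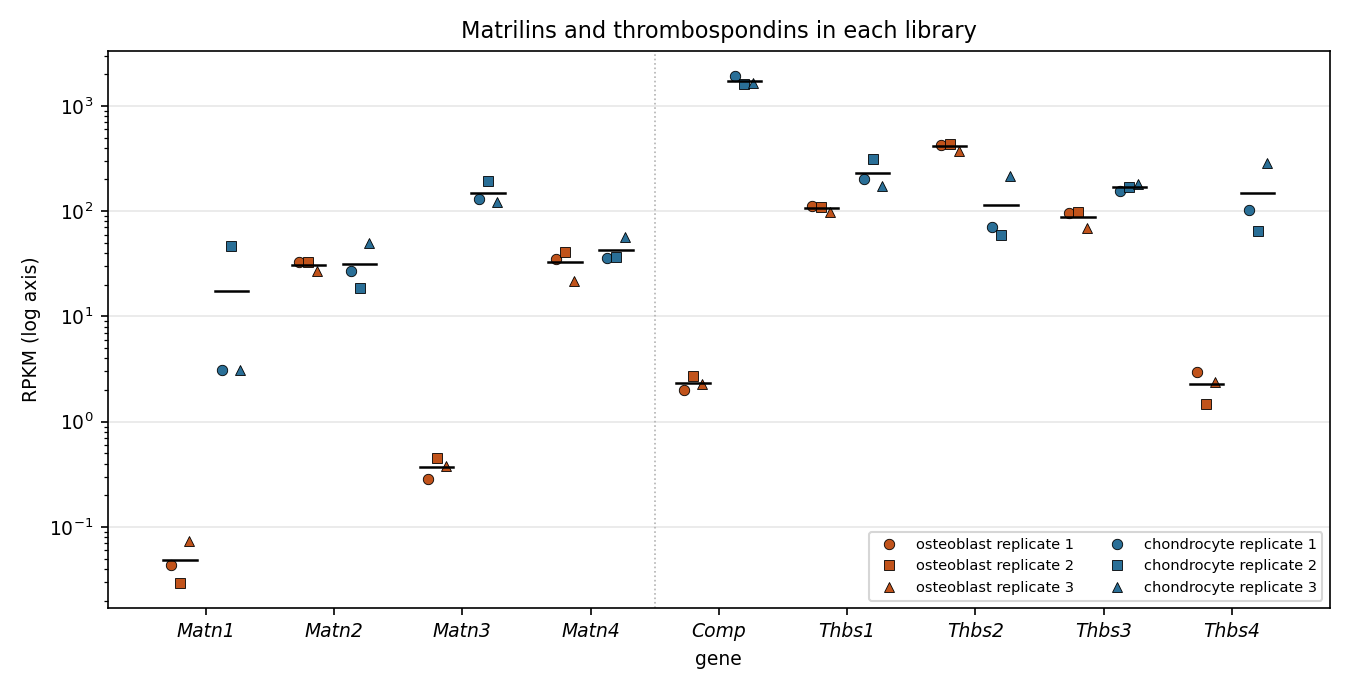
RPKM of the 9 genes on a log axis, one point per library, with osteoblasts on the left and chondrocytes on the right of each gene and a bar at each group mean (n = 3 each). The groups are apart for 7 genes and overlap for Matn2 and Matn4.

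The promoters of the 3 genes with the widest chondrocyte bias that have an entry among the RefSeq promoters (build GRCm38.p6), Matn3, Matn1 and Thbs4, are printed here beside that of Thbs2, the member higher in osteoblasts. Each runs from 250 bases before to 50 after the transcription start and is read on the strand of the gene. Matn3 is at chr12:8947679-8947978 on the plus strand, Matn1 at chr4:130944135-130944434 on the plus strand, Thbs4 at chr13:92794769-92795068 on the minus strand and Thbs2 at chr17:14694213-14694512 on the minus strand. Capitals mark matches, on either strand, to a short motif.
Matn3: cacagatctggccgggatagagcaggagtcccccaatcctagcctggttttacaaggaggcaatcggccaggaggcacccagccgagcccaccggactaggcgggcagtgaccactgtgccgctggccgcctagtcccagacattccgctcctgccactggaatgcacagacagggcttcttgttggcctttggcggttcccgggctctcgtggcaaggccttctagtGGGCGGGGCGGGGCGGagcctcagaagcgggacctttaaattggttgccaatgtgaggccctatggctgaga
Matn1: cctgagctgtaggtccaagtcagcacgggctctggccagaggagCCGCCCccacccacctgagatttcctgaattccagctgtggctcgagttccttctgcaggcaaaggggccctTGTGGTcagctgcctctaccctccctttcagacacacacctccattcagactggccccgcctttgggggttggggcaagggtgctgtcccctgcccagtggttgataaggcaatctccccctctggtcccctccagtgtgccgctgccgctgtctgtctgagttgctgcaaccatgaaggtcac
Thbs4: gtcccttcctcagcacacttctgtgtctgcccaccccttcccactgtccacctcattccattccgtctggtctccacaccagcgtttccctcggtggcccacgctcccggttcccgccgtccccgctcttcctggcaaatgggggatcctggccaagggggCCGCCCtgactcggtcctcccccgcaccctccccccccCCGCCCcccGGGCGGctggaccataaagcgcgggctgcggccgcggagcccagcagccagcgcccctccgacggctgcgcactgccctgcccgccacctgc
Thbs2: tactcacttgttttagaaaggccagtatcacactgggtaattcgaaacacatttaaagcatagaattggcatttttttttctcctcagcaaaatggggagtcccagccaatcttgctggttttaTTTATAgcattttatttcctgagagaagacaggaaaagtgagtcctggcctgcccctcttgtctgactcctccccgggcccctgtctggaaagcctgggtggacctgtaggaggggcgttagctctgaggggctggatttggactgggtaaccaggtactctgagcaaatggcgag
Motifs searched were a SOX core (ACAAT), a RUNX core (TGTGGT), a full nuclear factor I site, a GC box (GGGCGG) and a TATA box (TATAAA). They occur in 31.0%, 16.8%, 0.0365%, 35.7% and 13.6% of 32851 promoters of this length. Matn3 had 3 overlapping GC boxes starting at positions -22, -17 and -12 from the start site. Matn1 had a RUNX core at -134 and a GC box on the reverse strand at -206. Thbs4 had GC boxes at -89 and -51 on the reverse strand and at -42 on the gene's strand. Thbs2 had none of these but a TATA box on the reverse strand at -126. Bases G and C made up 62.7% of the Matn3, 61.3% of the Matn1, 72% of the Thbs4 and 48.3% of the Thbs2 promoter, against a median of 52.7% over all promoters. In total 6 of the 9 members matched an entry, Matn4 with 2, and none of these 7 entries held the SOX core or the full nuclear factor I site. Matn2, Comp and Thbs1 had no entry.

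Matn3 encodes matrilin-3, an adaptor at the surface of collagen fibrils in cartilage. Its RPKM was 0.287, 0.452 and 0.381 in osteoblast libraries 1, 2 and 3, against 131, 193 and 121 in chondrocyte libraries 1, 2 and 3. All osteoblast libraries were far below all chondrocyte libraries, and the osteoblast values stand for an estimated 30, 46 and 31 reads. The means were 0.373 ± 0.0830 in osteoblasts and 149 ± 39.0 in chondrocytes (SD, n = 3 each), a chondrocyte level 398 times that of osteoblasts. The log2 difference was -6.74 ± 0.18 (SE), with a Benjamini-Hochberg adjusted p from limma of 5.21e-07, and it ranked 12 from the most negative of all tested genes.

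Matn1 encodes matrilin-1, also called cartilage matrix protein. Its RPKM was 0.0433, 0.0297 and 0.0740 in osteoblasts, against 3.12, 46.6 and 3.10 in chondrocytes. The groups did not overlap, but chondrocyte library 2 stood 15.0 times above the mean of the other chondrocyte libraries. The osteoblast values correspond to an estimated 3, 2 and 4 reads, and the chondrocyte values to 210, 3139 and 223. Of the chondrocyte reads, most came from library 2. Mean RPKM was 0.0490 ± 0.0227 in osteoblasts and 17.6 ± 25.1 in chondrocytes (SD, n = 3 each). The chondrocyte mean was 359 times that of osteoblasts, and 63.4 times without chondrocyte library 2. The log2 difference was -3.15 ± 0.88 (SE), adjusted p = 0.0147 by limma with Benjamini-Hochberg adjustment. The call was lost with a pseudocount of 5 (adjusted p = 0.0665, with 1.72e-06 to 0.0665 over 19 alternatives).

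Matn2 and Matn4 are matrilins with a wide tissue distribution beyond cartilage. Matn2 had 32.8, 32.8 and 27.2 RPKM in osteoblasts, against 27.2, 18.8 and 49.4 RPKM in chondrocytes. The chondrocyte range enclosed the osteoblast libraries, and the log2 difference of 0.064 had a 95% interval of -0.66 to 0.79 (limma adjusted p = 0.864). Matn4 had 35.0, 41.0 and 21.8 RPKM in osteoblasts, against 36.2, 37.0 and 56.3 RPKM in chondrocytes. These groups overlapped too, at 32.6 ± 9.85 RPKM in osteoblasts and 43.2 ± 11.4 in chondrocytes (SD, n = 3 each), with a log2 difference of -0.41 and an interval of -1.03 to 0.20 (limma adjusted p = 0.195). With median-of-ratios scaling Matn4 was called lower in osteoblasts (log2 difference -0.90, adjusted p = 0.0143, with 0.0143 to 0.560 over 20 alternatives), while Matn2, called under no alternative, changed sign to -0.42.

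Matn4 was the one member with 2 transcripts in the table, NM_013592 and NM_001252563, which share 10 of 11 exons and differ in a first exon of 124 or 63 bases. The minor transcript held 1.41%, 2.64% and 5.35% of Matn4 RPKM in osteoblasts, against 1.78%, 5.84% and 3.08% in chondrocytes. These shares overlap between the groups, and the rule that divided reads of the shared exons was not given in the sources used here.

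Comp encodes the fifth thrombospondin, a pentamer that binds collagens and fibronectin and is abundant in cartilage and tendon. It had 2.01, 2.75 and 2.27 RPKM in osteoblasts, against 1920, 1606 and 1642 RPKM in chondrocytes. The groups were far apart and each was tight, with means of 2.34 ± 0.376 in osteoblasts and 1722 ± 172 in chondrocytes (SD, n = 3 each), a chondrocyte level 735 times that of osteoblasts. Its log2 difference of -9.01 ± 0.13 (SE) had a limma adjusted p of 1.16e-07 (Benjamini-Hochberg) and ranked 2 from the most negative. By level Comp ranked 15 in chondrocytes, where it held 0.618% of all RPKM, and 9452 of 11218 in osteoblasts.

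Thbs4 encodes a pentameric thrombospondin of tendon, muscle and cartilage matrix. It had 2.94, 1.48 and 2.40 RPKM in osteoblasts, against 102, 65.1 and 284 RPKM in chondrocytes. No osteoblast library came near a chondrocyte library, but the chondrocyte libraries differed 4.36-fold among themselves. The means were 2.28 ± 0.739 in osteoblasts and 150 ± 117 in chondrocytes (SD, n = 3 each). The chondrocyte mean was 66.0 times that of osteoblasts, and 36.7 times without chondrocyte library 3. The log2 difference was -5.28 ± 0.49 (SE), limma adjusted p = 9.67e-05, and -4.68 without that library. Skeletal muscle markers (Myod1, Myog, Acta1, Myh3 and Tnnt1, of which 0 of 5 reached the tested set) summed to 0.689 to 0.889 RPKM in osteoblasts and 0.0805 to 0.188 RPKM in chondrocytes, with Myod1 and Myog at the floor of the table in every chondrocyte library. The part of muscle cells in the Thbs4 values was not tested.

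Thbs3 encodes the remaining pentamer, which is expressed in developing bone and cartilage. It had 97.1, 97.2 and 69.3 RPKM in osteoblasts, against 154, 168 and 182 RPKM in chondrocytes. The groups did not overlap, and both expressed it strongly. The means of 87.8 ± 16.1 in osteoblasts and 168 ± 13.9 in chondrocytes (SD, n = 3 each) gave a log2 difference of -0.94 ± 0.16 (SE), limma adjusted p = 0.00139. Thbs3 shares 318 exon bases with Mtx1 on the opposite strand, a gene at 14.1, 14.1 and 12.6 RPKM in osteoblasts against 9.20, 11.5 and 8.10 in chondrocytes. Other members also share exon bases with a gene on the opposite strand. Thbs1 shares 208 with Gm29233, which has no values here. Matn4 shares 149 with Rbpjl, at 0.0453 to 0.157 RPKM over the libraries. Matn2 shares 70 with 9430069I07Rik, at the floor of 0.0001 in every library. The use of strand in counting was not given in the sources used here.

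Thbs1 and Thbs2 encode the trimers and differed between the cell types in opposite directions. Thbs1, whose product activates latent transforming growth factor beta and binds CD47 and CD36, had 113, 108 and 97.4 RPKM in osteoblasts, against 202, 311 and 173 RPKM in chondrocytes. All chondrocyte libraries were higher, with means of 106 ± 7.82 in osteoblasts and 229 ± 72.6 in chondrocytes (SD, n = 3 each), a log2 difference of -1.06 ± 0.21 (SE) and a limma adjusted p of 0.00319. Platelets are a well known source of this protein. The 5 platelet and megakaryocyte markers summed to 9.31 to 13.8 RPKM in osteoblasts and 3.76 to 5.41 in chondrocytes. Of these, 2 were tested. Pf4 was higher in osteoblasts, as 55.5% of all tested genes were, and Gp1bb was not called. Gp9 was at the floor of the table in all osteoblast libraries. The part of platelets in the Thbs1 values was not tested.

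Thbs2, whose product modulates collagen fibril assembly and pericellular proteinase levels, was the member higher in osteoblasts. It had 430, 433 and 372 RPKM in osteoblasts, against 71.2, 58.8 and 215 RPKM in chondrocytes. The groups did not overlap, and chondrocyte library 3 was 3.31 times the mean of the other chondrocyte libraries. The means were 412 ± 34.2 in osteoblasts and 115 ± 87.0 in chondrocytes (SD, n = 3 each). The osteoblast mean was 3.58 times that of chondrocytes, and 6.34 times without chondrocyte library 3. The log2 difference was 2.08 ± 0.44 (SE), limma adjusted p = 0.00448, and 2.65 without that library. By level Thbs2 ranked 112 in osteoblasts and 272 in chondrocytes.

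**Figure D2:**
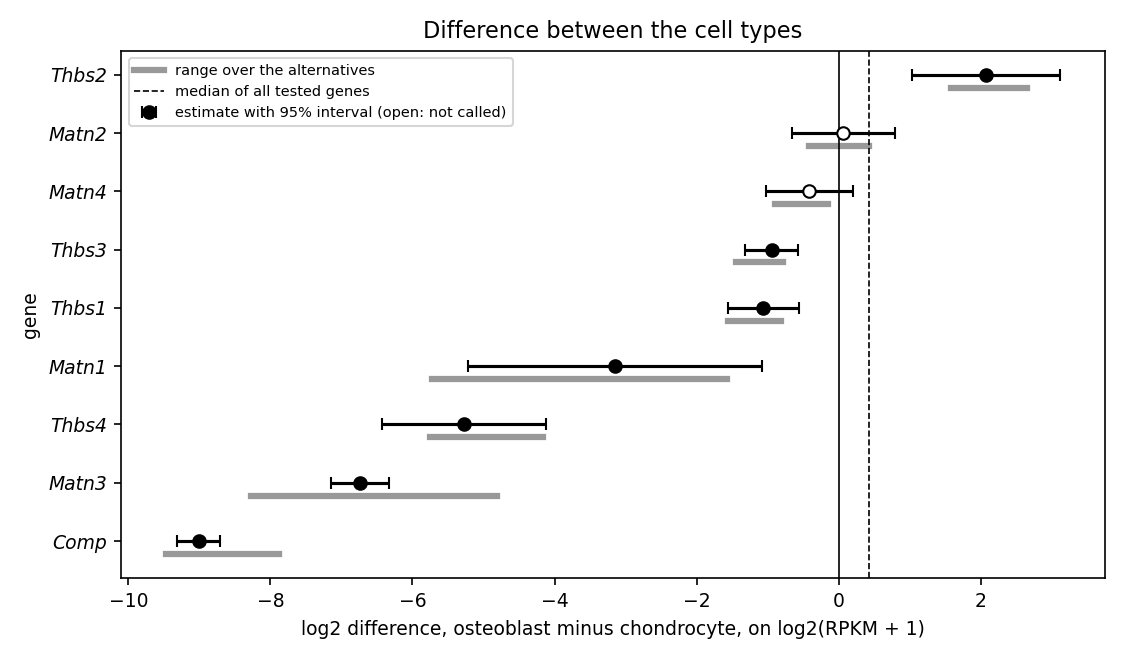
Log2 difference, osteoblast minus chondrocyte, of log2(RPKM + 1) for each gene (points, open where not called) with its 95% interval from limma (n = 3 libraries each), the range over the alternative settings as a grey bar, and the median of all tested genes as a dashed line. Thbs2 lies above 0 at 2.08, Comp is the farthest below at -9.01, and the grey bar of Matn2 is the one that crosses 0.

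Ordered by mean level, osteoblasts had Thbs2, Thbs1, Thbs3, Matn4, Matn2, Comp, Thbs4, Matn3 and Matn1. Neighbours in that order overlapped for 2 pairs, Matn4 with Matn2 and Comp with Thbs4. Chondrocytes had Comp first, then Thbs1, Thbs3, Thbs4, Matn3 and Thbs2, each overlapping the next, and then Matn4, Matn2 and Matn1, again overlapping. Comp stood clear of the second gene in chondrocytes.

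Summed over the 4 matrilins, RPKM was 68.1, 74.3 and 49.5 in osteoblasts, against 198, 296 and 230 in chondrocytes. The make-up differed more than the sum. Matn4 and Matn2 made up 50.2% ± 5.69 and 49.1% ± 5.53 of osteoblast matrilin RPKM, against 18.4% ± 5.97 and 13.9% ± 7.56 in chondrocytes. Matn3 held 0.600% ± 0.174 in osteoblasts and 61.5% ± 7.59 in chondrocytes (SD, n = 3 each), and Matn1 held 0.0844% in osteoblasts and 6.23% in chondrocytes, 15.8% in chondrocyte library 2. These shares are descriptions, with no test.

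The 5 thrombospondins summed to 644, 643 and 544 RPKM in osteoblasts, against 2450, 2209 and 2497 RPKM in chondrocytes. Without Comp the sums were close on the deposited scale, at 608 ± 57.6 in osteoblasts and 663 ± 170 in chondrocytes (SD, n = 3 each). Thbs2 held 67.5% ± 0.905 of the thrombospondin RPKM in osteoblasts and 4.73% ± 3.37 in chondrocytes, and Comp 0.386% ± 0.0643 in osteoblasts and 72.3% ± 6.31 in chondrocytes. On that scale the trimers Thbs1 and Thbs2 summed to 518 RPKM in osteoblasts and 344 in chondrocytes. The pentamers Comp, Thbs3 and Thbs4 summed to 92.5 in osteoblasts and 2041 in chondrocytes. The sums of both families were not recomputed under other scalings. Median-of-ratios scaling divides osteoblast libraries by 1.15 to 1.23 and chondrocyte libraries by 0.755 to 0.910. It would therefore lower the osteoblast sums and raise the chondrocyte sums.

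**Figure D3:**
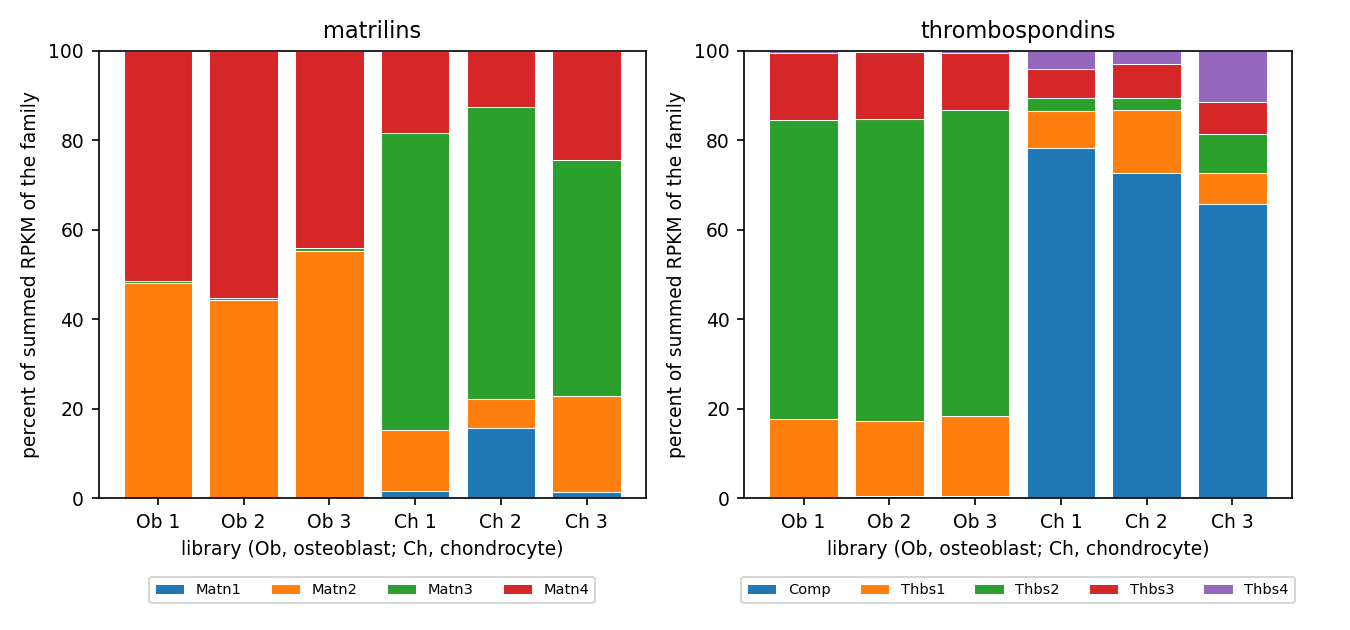
Share of each gene in the summed RPKM of its family, in percent, per library, with osteoblasts on the left and chondrocytes on the right. Thbs2 fills 66.7% to 68.5% of each osteoblast bar, and Comp 65.8% to 78.4% of each chondrocyte bar.

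Ratios within a library do not depend on library scaling beyond the pseudocount. Over 7 pairs of members, the difference in mean log2((a + 1)/(b + 1)) was tested by an exact two-sided permutation test over libraries, in which 3 against 3 cannot go below p = 0.1. The log2 ratio of Thbs1 to Thbs2 was -1.95 ± 0.038 in osteoblasts and 1.19 ± 1.37 in chondrocytes (SD, n = 3 each). By library it was 1.496, 2.38 and -0.31 in chondrocytes, so Thbs2 exceeded Thbs1 in chondrocyte library 3 as it did in all osteoblast libraries. The difference was -3.13, exact permutation p = 0.1 and 0.117 after Benjamini-Hochberg adjustment over the 7 pairs.

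The log2 ratio of Comp to Thbs1 averaged -5.01 in osteoblasts and 2.95 in chondrocytes. Comp to Thbs4 averaged 0.049 in osteoblasts and 3.78 in chondrocytes, and Thbs3 to Thbs4 averaged 4.77 in osteoblasts and 0.44 in chondrocytes. Each of these 3 ratios separated the groups completely, at the smallest exact permutation p of 0.1 and 0.117 after adjustment, so none could pass the 0.05 threshold in this design. The log2 ratio of Matn2 to Matn4 was -0.032 ± 0.316 in osteoblasts and -0.51 ± 0.39 in chondrocytes (SD, n = 3 each), a difference of 0.48 within the spread of the libraries (exact permutation p = 0.2). Matn1 to Matn4 and Matn1 to Matn3 differed by -2.74 and 3.59, and the low Matn1 level in osteoblasts leaves both dependent on the pseudocount. With pseudocounts of 0.1 and 5, Matn1 to Matn4 differed by -5.30 and -1.20 (exact permutation p = 0.1 and 0.2), and Matn1 to Matn3 by 2.55 and 3.23 (exact permutation p = 0.2 and 0.1). Without chondrocyte library 2 Matn1 to Matn4 differed by -1.46. The ratios of mean RPKM of Matn1 to Matn3 were 0.131 in osteoblasts and 0.119 in chondrocytes. The chondrocyte value rests mostly on library 2, where Matn1 had 46.6 RPKM, against 3.12 and 3.10 in libraries 1 and 3. By library the log2 ratio of Matn1 to Matn3, with a pseudocount of 1, was -5.00, -2.03 and -4.90 in chondrocytes.

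Chondrocyte libraries 2 and 3 each stood apart in a different set of members. Matn1, Thbs1 and Matn3 in library 2 were 15.0, 1.66 and 1.53 times the mean of the other chondrocyte libraries. Of the hypertrophic markers there, Col10a1, a collagen of hypertrophic cartilage, was at 5.03 times, Ihh, a prehypertrophic signal, at 5.47 and Pth1r at 1.14. Of the 6 chondrocyte markers, 5 (Col2a1, Acan, Col9a1, Hapln1 and Snorc) were at 1.48 to 2.52 times and Sox9 at 0.848, so Thbs1 and Matn3 lay within the range of general cartilage markers. Thbs4, Thbs2 and Matn2 in library 3 were 3.40, 3.31 and 2.15 times the mean of the others. Of the tendon and perichondrium markers there, Kera was at 5.50 times, Tnmd at 4.31, Scx at 2.60, Mkx at 1.65, Fmod at 1.16 and Egr1 at 0.840. The bone collagen gene Col1a1 was at 3.43 times. Markers of blood and vessel cells were also high in library 3, with the 5 myeloid markers at 1.77 to 6.16 times, the 5 endothelial markers at 2.11 to 3.10 and the platelet marker Pf4 at 5.45, while Itga2b was at 0.959 and Gp1bb at 0.535. Scx, a tendon transcription factor, had 17.3, 11.5 and 37.4 RPKM in chondrocyte libraries 1, 2 and 3. Over the tendon and perichondrium list (Scx, Mkx, Tnmd, Egr1, Kera and Fmod, 6 of 6 tested) the sums were 461 to 721 RPKM in osteoblasts and 2355 to 3430 in chondrocytes. Fmod made up most of the chondrocyte sums, at 1992 to 2697 RPKM. Fmod (164 to 272 RPKM) and Egr1 (224 to 344 RPKM) made up most of the osteoblast sums. Of the list, 2 were higher in osteoblasts, 3 were lower (Kera through the filter by chondrocytes alone) and 1 was not called. That is 33.3% higher and 50% lower, against 55.5% and 13.5% of all tested genes. Of the 3 hypertrophic markers, Col10a1 was lower in osteoblasts, Pth1r was higher and Ihh was not called. That is 33.3% each way, against the same shares of all tested genes. The hypertrophic list summed to 123 to 134 RPKM in osteoblasts and 28.6 to 96.3 RPKM in chondrocytes. Pth1r made up most of the osteoblast sums, at 119 to 128 RPKM, and had 24.1 to 31.0 RPKM in chondrocytes. The part of any of these lists in the members' values was not tested.

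**Figure D4:**
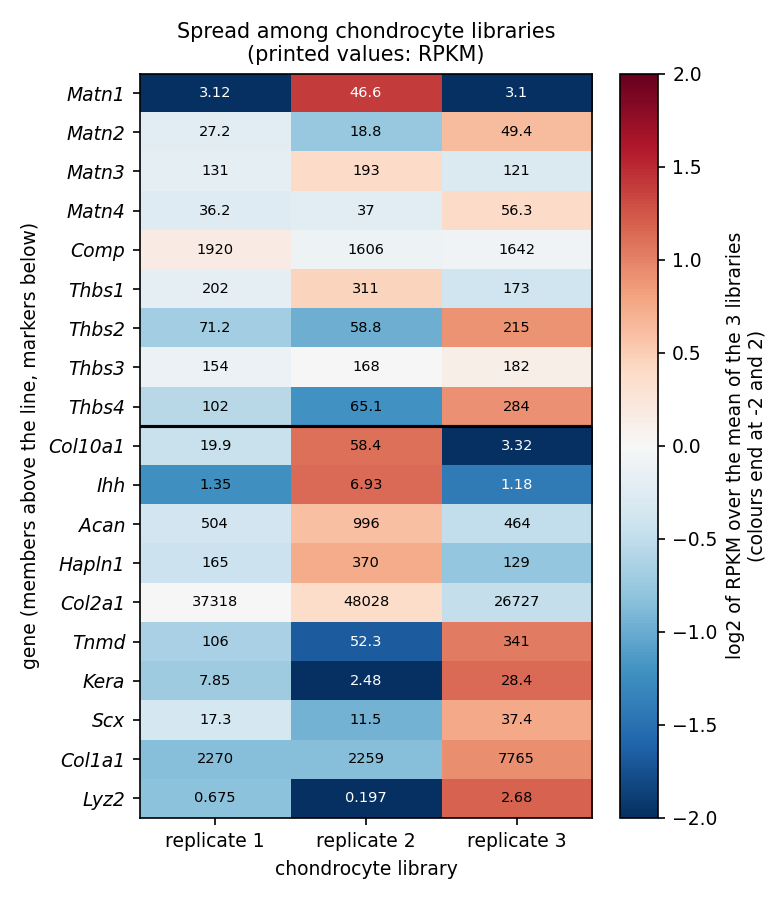
RPKM in each chondrocyte library (printed numbers) and its log2 ratio to the mean of the 3 libraries (colour, ending at -2 and 2), for the members above the line and for cartilage, tendon, bone and myeloid markers below it. Matn1 is high in library 2 with Col10a1, Ihh, Acan and Hapln1, and Thbs4 and Thbs2 are high in library 3 with Tnmd, Kera, Col1a1 and Lyz2. The markers drawn are a selection from their lists. Among those left out, Pth1r and Sox9 in library 2 were at 1.14 and 0.848 times the mean of the other chondrocyte libraries. Fmod and Egr1, also left out, were at 1.16 and 0.840 times in library 3.

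Endothelial and myeloid markers were at low levels in both groups. Endothelial markers (0 of 5 tested) summed to 0.604 to 2.14 RPKM in osteoblasts and 2.08 to 4.97 in chondrocytes. Myeloid markers summed to 13.5 to 17.3 in osteoblasts and 1.16 to 6.25 in chondrocytes. Of the 5, 4 were tested and all 4 were higher in osteoblasts, where 55.5% of all tested genes were. Among these, 2 (Cd68 and Adgre1) passed the filter through osteoblasts alone, so that their direction was built in. Dissociation stress genes were at high levels, the 6 summing to 1134 to 1635 RPKM in osteoblasts and 953 to 1529 in chondrocytes. Of the 6, Fos was higher in osteoblasts, Atf3 and Ier2 were lower and 3 were not called. That is 16.7% higher and 33.3% lower, against 55.5% and 13.5% of all tested genes. The part of endothelial, myeloid and dissociation stress genes in the members' values was not tested.

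For each member the 2 tested genes with the nearest profile were named, by the root mean square distance between log2(RPKM + 1) profiles over the 6 libraries, each centred on its own mean. Symbols of the kind given to unnamed predicted genes were left out before ranking. This also drops genes held under an older symbol of that kind, such as Snorc. Comp lay nearest Lect1 (distance 0.20) and Col9a2 (0.24), against a median of 4.73 over the genes ranked. Matn3 lay nearest Chadl (0.15) and Mfi2 (0.20), against 3.60. Thbs2 lay nearest Tmsb10 (0.069) and Lgals9 (0.12), against 0.99, and Thbs1 nearest Plod2 and Unc5c (0.095 and 0.096), against 0.84. Thbs3 lay nearest Rspo3 (0.066) and Rasgef1b (0.095), against 0.74. Matn2 lay nearest Slc9a9 (0.068) and Pik3c2b (0.079), against 0.47, and Matn4 nearest Plac9b (0.12), which has a near-identical copy in the genome, and Arsb (0.16), against 0.56. Matn1 was at 0.61 from Tnnt3 and 0.74 from Foxa2, against 2.19, and Thbs4 at 0.59 from Cilp2 and 0.61 from Agtr2, against 2.93.

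The members act with collagens, receptors, proteinases and chaperones, and lists of these were described by counts, to be read against 55.5% of all tested genes higher in osteoblasts, 13.5% lower and a median log2 difference of 0.43. A list of 9 skeletal dysplasia genes held Comp, Matn3, Col9a1, Col9a2, Col9a3, Slc26a2, Col2a1, Col11a1 and Col11a2. All 9 were lower in osteoblasts (100%, against 13.5% of all tested genes). Their median log2 difference was -8.16, against 0.43 over all tested genes. Matn3 passed the filter through chondrocytes alone, so its direction was built in. Comp and Matn3 are members, and Col2a1 and Col9a1 are chondrocyte markers named above, so the count and median are no support. Col2a1 was lower by a log2 difference of -10.18, Col9a2, which encodes a chain of type IX collagen, by -9.01, and the sulfate transporter Slc26a2, at 5.67 RPKM in osteoblasts and 24.7 in chondrocytes, by -1.94.

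Matrix partners of the members split. Of 22 tested, 8 were higher in osteoblasts, 11 were lower and 3 were not called (36.4% higher and 50% lower, against 55.5% and 13.5% of all tested genes), and the median was -0.23, against 0.43. Cartilage collagens had the widest differences, led by Col2a1, Col9a2, Col9a3 (-8.87) and Col9a1 (-8.16). Col1a1 (2.53), Col5a1 (2.16) and the elastin gene Eln (1.27) were higher in osteoblasts. Fn1, encoding fibronectin, had 319 ± 45.0 RPKM in osteoblasts and 1320 ± 245 in chondrocytes (SD, n = 3 each), a log2 difference of -2.04. Col14a1, a fibril-associated collagen, differed by -4.07, and Bgn by -1.12. Dcn, Col6a1 and Fbn2 were not called.

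Of 16 receptors of thrombospondins, 13 were tested, 8 were higher in osteoblasts, 2 were lower and 3 were not called, with a median of 0.78 against 0.43. The 61.5% higher and 15.4% lower were near the 55.5% and 13.5% of all tested genes. Itgb3 passed the filter through osteoblasts alone and Itga6 through chondrocytes alone, so their direction was built in. Notch3 had 11.0 ± 1.57 RPKM in osteoblasts and 0.827 ± 0.424 in chondrocytes, Itgb3 had 5.82 ± 0.591 in osteoblasts and 0.881 ± 0.0844 in chondrocytes, and the Thbs1 receptor Cd47 had 15.7 ± 1.33 in osteoblasts and 7.52 ± 0.938 in chondrocytes (SD, n = 3 each). The syndecan gene Sdc4 went the other way, with 28.3 ± 1.16 RPKM in osteoblasts and 239 ± 66.0 in chondrocytes, a log2 difference of -3.00, and so did the integrin gene Itga6 (-1.93). Lrp1, an endocytic receptor for Thbs1 and Thbs2, was at 76.1 RPKM in osteoblasts and 73.5 in chondrocytes and not called, and Cd36 was below the filter at 0.705 RPKM in osteoblasts and 1.11 in chondrocytes.

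Of 12 proteinases known to cut members, 10 were tested, 8 were higher in osteoblasts, 0 were lower and 2 were not called, and the median was 1.69, against 55.5% higher and a median of 0.43 over all tested genes. Of the 8, 4 (Adamts5, Adamts7, Mmp9 and Mmp13) passed the filter through osteoblasts alone, so that their direction was built in and the count and median are no support. The collagenase gene Mmp13 had 111 ± 34.6 RPKM in osteoblasts and 0.388 ± 0.119 in chondrocytes (SD, n = 3 each), a log2 difference of 6.30. Adamts4 (3.09), Adamts5 (2.23), Mmp9 (2.21), and Adamts12 (1.76) and Adamts7 (1.22), whose products cut COMP, were higher in osteoblasts, and Adamts1 and Htra1 were not called. Of 11 genes for latent transforming growth factor beta, 9 were tested, 4 were higher, 1 was lower and 4 were not called. Their 44.4% higher, 11.1% lower and median of 0.44 compare with 55.5%, 13.5% and 0.43 over all tested genes. Ltbp1, which encodes a latent binding protein, was higher in osteoblasts by a log2 difference of 2.29. Tgfb1 had 68.8 ± 6.01 RPKM in osteoblasts and 14.3 ± 2.68 in chondrocytes, and Tgfb2 had 5.56 ± 0.364 in osteoblasts and 9.46 ± 2.87 in chondrocytes (SD, n = 3 each). Of 12 chaperones of secreted glycoproteins, 9 were higher in osteoblasts, 0 were lower and 3 were not called, 75% higher against 55.5% of all tested genes, with a median of 0.66 against 0.43. Median-of-ratios scaling takes out that lean of the whole table by design (3458 higher and 3429 lower), and the chaperones were not recounted under it. Manf (1.23), Dnajb11 (1.09) and Canx (1.01) were among the higher, and Hspa5 was at 253 RPKM in osteoblasts and 263 in chondrocytes and not called.

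**Figure D5:**
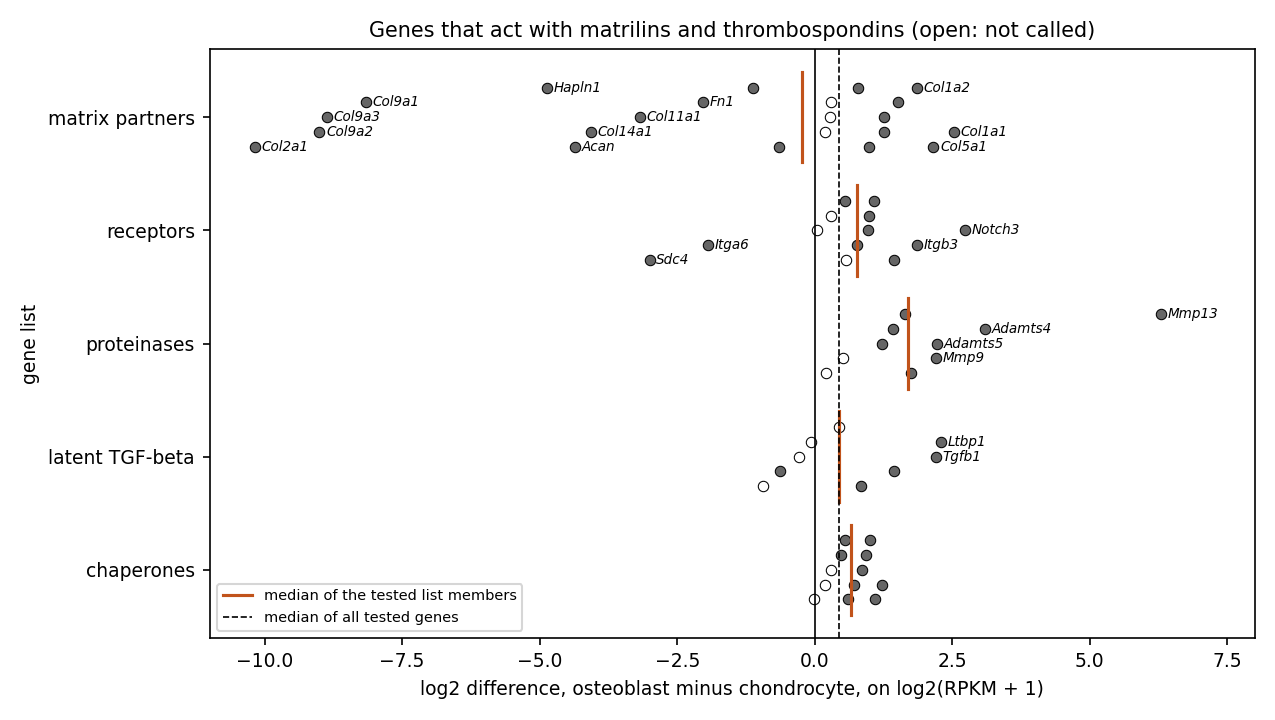
Log2 difference, osteoblast minus chondrocyte, of log2(RPKM + 1) for each tested gene (points, open where not called) of the matrix partner, receptor, proteinase, latent transforming growth factor beta and chaperone lists, with each list's median as a solid line and that of all tested genes as a dashed line. The proteinases have a median of 1.69, and the matrix partners spread from Col2a1 at -10.18 to Col1a1 at 2.53.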

How the data were processed

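The authors deposited 1 table of RPKM (reads normalized to length and library size) for 31055 RefSeq transcripts with gene symbols in 6 libraries. Per the submitters' processing notes TopHat2 2.0.8 was among the tools, and the build was mm9. The counting program, its use of strand and its handling of shared reads were not given in the sources used here. Transcripts without reads are listed at 0.0001. Depth was estimated from the steps between low values, with transcript lengths from GENCODE M21. Of those low values, 58.2% to 60.8% per library came within 0.05 of a whole read, against 10% by chance. Since that is far from nearly all, no count test or counting interval is reported, and read numbers are estimates.

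Where a symbol had several transcripts, their RPKM values were added. The test was limma 3.58.1 (R 4.3.3), two-sided, on log2(RPKM + 1), with a variance trend and robust moderation, for symbols that reached 1 RPKM in 3 or more of the 6 libraries. P-values were adjusted by Benjamini-Hochberg over all 11218 tested. The log2(RPKM + 1) scale understates changes of genes at low levels. Fold values are ratios of mean RPKM.

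The members and lists were chosen with earlier results of these data known. Named genes are the members, up to 4 called and 3 uncalled genes of each list by size and level, and the 2 nearest profiles of each member. Cd47, Adamts7, Adamts12, Tgfb2, Slc26a2, Col1a1, Col5a1, Col14a1, Eln, Fn1, Bgn and the genes beside the chondrocyte spread come from the same lists but were picked outside that rule, with values known. Alternatives were other pseudocounts, filters, scalings, moderation, weights, transcript choice, a replicate block and each library left out. Code was tested on simulated data. Coordinates are those of RefSeq promoters in GRCm38.p6, a different build from mm9, and were used for sequence only.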

Additional observations from a re-analysis of the deposited data

How the results depend on the processing

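Comp, Matn3, Thbs1, Thbs2, Thbs3 and Thbs4 kept their call and direction in all 19 alternatives, and Matn1 in 18, losing it with a pseudocount of 5 (log2 difference -1.57). Matn2, never called, changed sign in 5 alternatives, to -0.42 with median-of-ratios, -0.38 with upper-quartile, -0.35 with quantile and -0.091 with equal-sum scaling, and to -0.25 without chondrocyte library 2. Matn4 was called lower under the first 3 of those scalings (-0.90, -0.86 and -0.84). Those 3 even out the typical level between libraries by design. They brought the median log2 difference of all tested genes to between 0.016 and 0.045, against 0.43 as deposited. Relative to that median, the log2 difference of Thbs2 was 1.56 to 1.75 and that of Thbs3 -1.46 to -1.29. Over all genes, they gave 3458, 3655 and 3667 higher and 3429, 3256 and 3367 lower in osteoblasts. A filter on a mean RPKM of at least 5 left 4977 calls, 4092 higher and 885 lower, because fewer genes were tested. The transcripts of Matn4 taken apart, an alternative chosen after seeing the data, gave -0.40 and -0.36, neither called. Leaving out each library gave 6567 to 8217 calls over all genes.

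Same-numbered libraries of the groups did not deviate together (correlations of 0.079, 0.010 and -0.155, against -0.150 to 0.126 for differently numbered ones). These values give no sign of pairing by number. They cannot exclude that same-numbered libraries were collected or prepared together. With the replicate block 7268 genes were called, and the same 7 members. Precision is limited by 3 libraries a group, by the few reads of Matn1 in osteoblasts and by the spread among chondrocyte libraries.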
